A study of Homo sapiens with 24 samples.

Results

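Expression of 9 genes of the S100 family of calcium-binding proteins was examined in 2 B-cell lymphoma lines exposed to a SYK inhibitor, a BET inhibitor or both. The genes were S100A4, S100A6, S100A8, S100A9, S100A10, S100A11, S100A13, S100A16 and S100B, 9 of the 25161 gene symbols in the array table. They were chosen by gene symbol with the log2 values and changes in these 24 arrays already known, so their levels and changes are given as a description and carry no p-value. Each of the 9 symbols had a single row in the table, and all 9 were kept, since no filter on low values was applied.

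S100 proteins are small EF-hand proteins that mostly work as dimers. On binding calcium they expose a surface that docks onto partners such as annexins, cytoskeletal motors and membrane receptors, and some of them are also secreted. Most S100 genes lie in a cluster on the long arm of chromosome 1, and in blood cells the family is best known for S100A8 and S100A9 of neutrophils and monocytes.

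SU-DHL-4 is an established line of diffuse large B-cell lymphoma and DG-75 an established line of Burkitt lymphoma. Each was kept for 72 h with DMSO alone, with 1 µM Entospletinib (Ento), which blocks the kinase SYK downstream of the B-cell receptor, with 0.01 µM AZD5153 (AZD), a bivalent inhibitor of BET chromatin readers, or with the combination (Ento+AZD) at the same doses. The 8 groups held 3 arrays each, which the study calls biological triplicates without saying how the cultures were separated, so the spread between them may be partly technical. Each lymphoma type stood for 1 line, and line and lymphoma type therefore cannot be told apart.

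Levels were log2 intensities of Clariom D arrays after robust multi-array average (RMA) normalization. Array medians were 4.89 to 5.14, and no detection value came with the table, so a low value cannot be read as expressed or not expressed. Levels of different genes were not compared, because probes differ in brightness. The number of arrays limits the precision. The mean of 6 B-cell markers was 9.88 to 10.5 in the arrays of SU-DHL-4 and 8.36 to 9.43 in those of DG-75. The mean of 10 myeloid markers was 4.09 to 4.35 and 3.95 to 4.36, and that of 5 T and NK cell markers 2.61 to 3.03 and 2.52 to 2.94. These means are to be read between arrays and lines within a list, and not between lists.

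The upstream regions of S100A10, S100A11, S100A4 and S100A13 are printed because these are the 4 genes whose values separated the lines or the treatments most. Windows from RefSeq (GRCh38.p14) were found for 8 of the 9 genes, and none for S100B. The sequences are the 250 bases before the annotated start on the minus strand, 5′ to 3′, with capitals marking any match, on either strand, to a TATA box (searched as TATAAA), a GC box (GGGCGG), an AP-1 site (TGANTCA), an E-box (CACGTG) or a CCAAT box (CCAAT). S100A10 lies at chr1:151993860-151994109, S100A11 at chr1:152037005-152037254, S100A4 at chr1:153545807-153546056, and the outermost of 3 windows of S100A13 at chr1:153634362-153634611.
S100A10: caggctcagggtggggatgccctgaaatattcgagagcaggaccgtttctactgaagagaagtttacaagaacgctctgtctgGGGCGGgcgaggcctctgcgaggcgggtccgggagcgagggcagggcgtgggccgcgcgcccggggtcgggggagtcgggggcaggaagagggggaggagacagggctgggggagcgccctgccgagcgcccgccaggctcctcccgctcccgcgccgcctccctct
S100A11: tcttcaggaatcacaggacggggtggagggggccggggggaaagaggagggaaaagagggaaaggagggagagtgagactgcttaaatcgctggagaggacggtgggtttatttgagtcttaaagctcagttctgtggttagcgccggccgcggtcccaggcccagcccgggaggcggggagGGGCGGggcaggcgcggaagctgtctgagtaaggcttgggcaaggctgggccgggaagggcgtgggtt
S100A4: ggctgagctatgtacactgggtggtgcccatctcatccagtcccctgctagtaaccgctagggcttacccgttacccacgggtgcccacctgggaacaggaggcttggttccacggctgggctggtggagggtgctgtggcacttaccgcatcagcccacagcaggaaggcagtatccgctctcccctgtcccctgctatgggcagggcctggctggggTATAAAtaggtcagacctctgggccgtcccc
S100A13: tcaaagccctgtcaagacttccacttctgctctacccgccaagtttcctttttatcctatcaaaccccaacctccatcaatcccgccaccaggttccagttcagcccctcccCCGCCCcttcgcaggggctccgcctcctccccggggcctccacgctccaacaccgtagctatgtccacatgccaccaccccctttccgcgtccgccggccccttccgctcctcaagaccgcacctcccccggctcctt
The printed S100A10, S100A11 and S100A13 windows each held 1 match to the GC box, which 42.6% of all 35116 windows of this length held. The S100A4 window held the TATA box at bases 31 to 26 before the start, and 10.7% of all windows held it. The 4 windows had 24, 15, 7 and 15 CpG dinucleotides in the order printed, against a median of 11 over all windows. No window of the 8 genes held the AP-1 letters, found in 6.57% of all windows, or the E-box letters, found in 6.34%. Such matches describe letters and not factor binding. Of the other two S100A13 windows, chr1:153627506-153627755 held a TATA box at bases 29 to 24 before the start and a CCAAT box, which 32.0% of all windows held, and chr1:153627240-153627489 held no match to any of the 5 motifs. Which of the 3 S100A13 starts was in use cannot be read from the arrays.

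S100A10 and S100A11 are next to each other among the protein-coding genes of chromosome 1. S100A13 shares its position with S100A1 and CHTOP, and S100A4 overlaps S100A5 and S100A8 overlaps S100A7A. S100A11 has 10 named pseudogenes elsewhere in the genome. Probe positions were not given, so signal shared with a copy or an overlapping gene cannot be set apart for these genes.

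The untreated lines differed widely in 3 S100 genes. S100A10 and S100A11 were low in SU-DHL-4 and high in DG-75, while S100A13 was higher in SU-DHL-4. A row was called where limma gave an adjusted p (Benjamini-Hochberg over all 25575 rows) under 0.05 and a fold change over 2. By this rule 3 of the 9 genes were called between the lines in DMSO, 1 higher and 2 lower in SU-DHL-4, where 7.2% of all rows were called. Since values of these arrays chose the genes, nothing is read from that count.

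**Figure D1:**
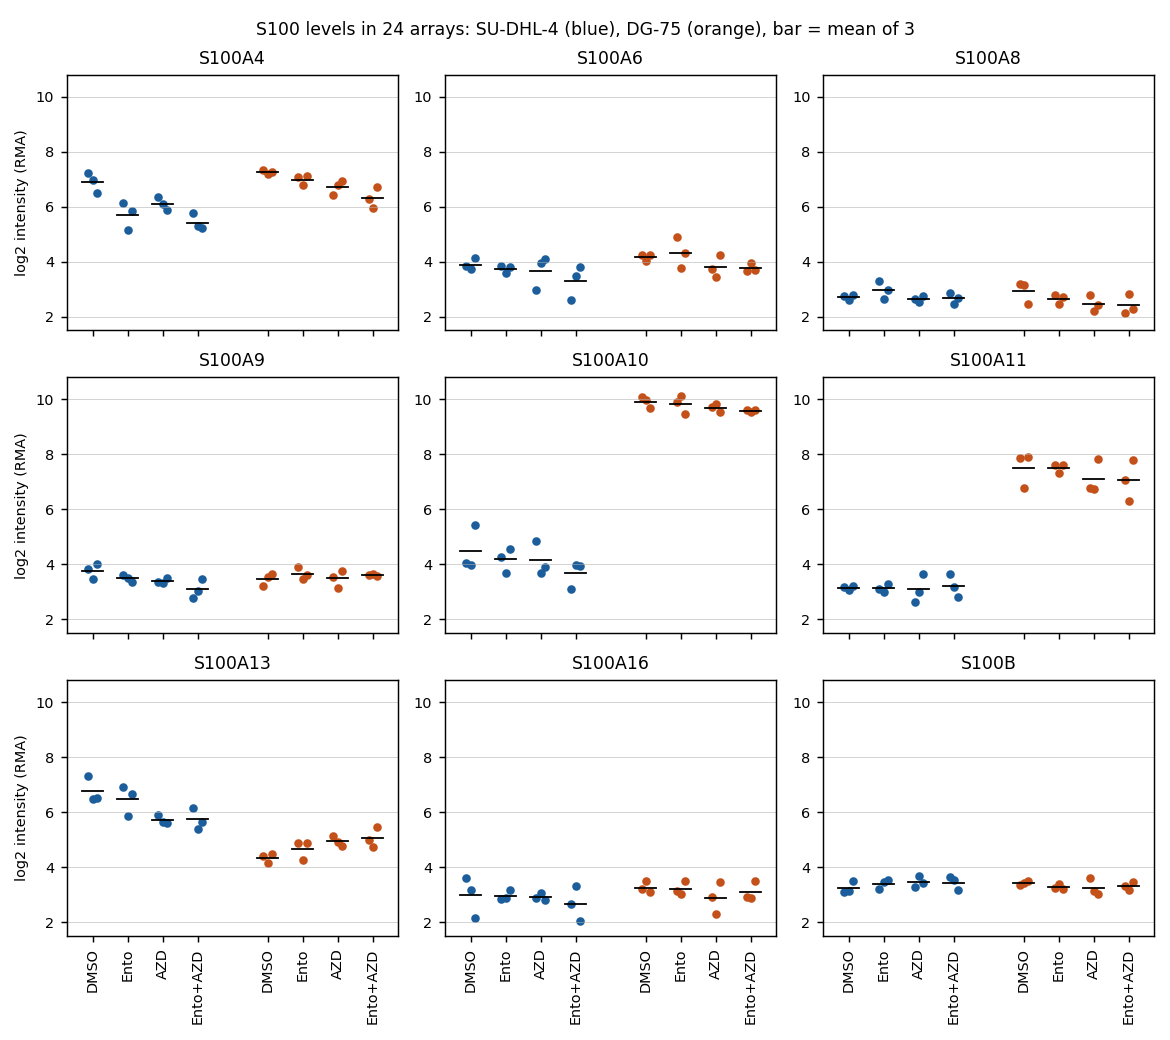
Log2 intensity of the 9 S100 genes in all 24 arrays, by line and treatment, with each point an array and each bar the mean of 3. S100A10 lay at 3.11 to 5.44 in SU-DHL-4 and at 9.45 to 10.11 in DG-75, and S100A11 showed the same order, while S100A13 ran the other way and S100A4 had its lowest mean with Ento+AZD in both lines.

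S100A10, also called p11, is the member that does not need calcium and pairs with annexin A2 at membranes. In the DMSO arrays of SU-DHL-4 its log2 level was 4.05, 3.96 and 5.44, and in those of DG-75 it was 10.10, 9.99 and 9.67. The groups were far apart, although replicate 3 of SU-DHL-4 stood above the other two. The difference, SU-DHL-4 minus DG-75, was -5.44 on the log2 scale (SE 0.33, n = 3 per line). It was -5.91 without replicate 3 of SU-DHL-4.

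ANXA2, the gene of that annexin, was no member of the set, and its adjusted p was taken over all rows. The partner lists were also chosen with earlier results of these data known, so p-values of their genes are not independent of that choice. Its DMSO levels were 2.98, 3.88 and 3.36 in SU-DHL-4 against 10.98, 10.86 and 10.57 in DG-75. The lines did not overlap in any array of ANXA2, and it differed by -7.39 (SE 0.26, limma adjusted p = 7.6e-16), the same direction as S100A10. RefSeq names 3 ANXA2 pseudogenes, whose share of the signal was not tested. After subtraction of each line's mean, S100A10 and ANXA2 had a correlation of 0.04 over 24 arrays, with 0.73 over the 12 arrays of DG-75 and -0.16 over those of SU-DHL-4, where both genes were low. The 12 arrays of a line share its treatments, and the correlations are a description.

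S100A11, which binds annexin A1 and acts in membrane repair and growth control, gave 3.19, 3.08 and 3.20 in SU-DHL-4 against 7.85, 6.79 and 7.90 in DG-75. All DG-75 arrays were higher, with replicate 2 the lowest of them. The difference was -4.36 (SE 0.34). The line accounted for 97.7% of the variance of S100A10 over the 24 arrays and for 96.1% of that of S100A11. The correlation between these neighbours was -0.16 over 24 arrays once line means were subtracted.

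S100A13, which takes part in the release of FGF1 and other proteins that lack a signal peptide, gave 7.31, 6.47 and 6.53 in SU-DHL-4 against 4.41, 4.14 and 4.48 in DG-75. The lines did not overlap, and the difference was 2.42 (SE 0.27), with SU-DHL-4 higher. In S100A10, S100A11, S100A13 and ANXA2 the lower line had a DMSO mean under the array medians and was not shown to be above background. Their values are therefore differences of log2 intensity, and the size of the difference in transcript is not known. The line accounted for 69.0% of its variance and the 8 groups for 88.3%, so that treatments held a larger share than in S100A10, where the groups accounted for 98.3%. The overlapping gene S100A1 had means of 5.30 in SU-DHL-4 against 4.95 in DG-75 and was not called. These 3 line differences were called in all 7 other settings and with any of the 24 arrays left out.

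The other 6 genes overlapped between the untreated lines. S100A4, a partner of non-muscle myosin, gave 7.22, 6.95 and 6.48 in SU-DHL-4 against 7.34, 7.18 and 7.26 in DG-75, a difference of -0.38 (SE 0.24). S100A6, or calcyclin, differed by -0.28, S100A16 by -0.27, S100A8 by -0.21 and S100B by -0.18. S100A9 differed by 0.30. With single arrays left out S100A4 ranged from -0.55 to -0.17, S100A6 from -0.39 to -0.19, S100A8 from -0.46 to -0.09, S100B from -0.31 to -0.11 and S100A9 from 0.17 to 0.46. S100A16 ranged from -0.59 without DMSO replicate 1 of SU-DHL-4 to 0.14 without replicate 3, so its direction rested on 1 array. Over the 9 genes the median difference was -0.27, beside 0.01 over all rows. Of the plasma cell markers 2 of 4 were lower in SU-DHL-4, with list means of 4.31 to 4.80 over all 12 arrays of that line, treated ones included, against 5.32 to 5.73 over those of DG-75, and 3 of 6 B-cell markers were higher. Of 6 epithelial and stromal markers VIM, the gene of vimentin, was lower, with 5.51, 5.16 and 5.53 against 8.04, 8.45 and 7.36, and the mean of that list was 5.22 to 5.52 over the same 12 arrays of SU-DHL-4 and 5.40 to 5.90 over those of DG-75. Their part in the S100 differences was not tested.

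**Figure D2:**
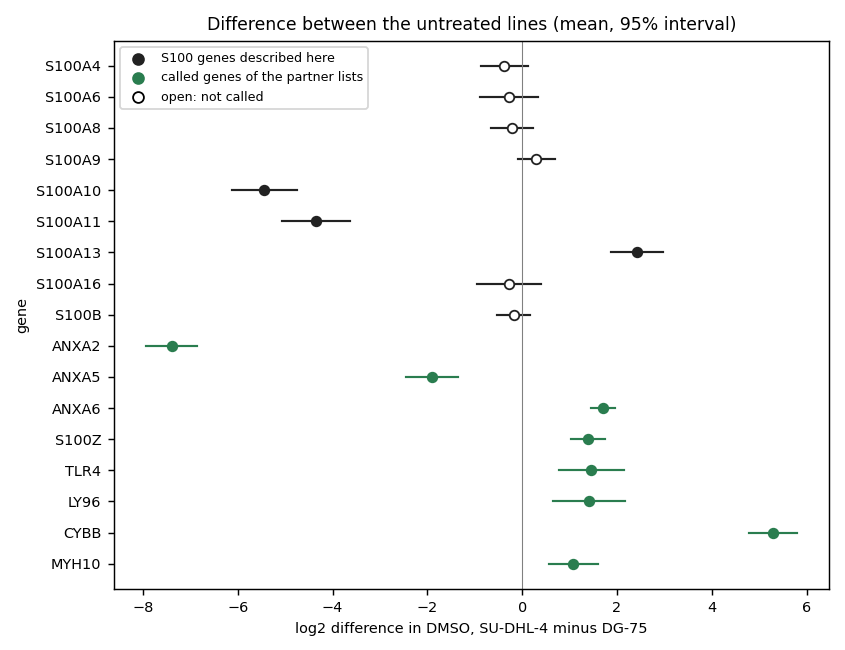
Log2 difference between the DMSO arrays, SU-DHL-4 minus DG-75, with 95% intervals, for the 9 S100 genes (black) and the called genes of the partner lists (green), filled where called. S100A10 and S100A11 lie at -5.44 and -4.36, with ANXA2 at -7.39, and S100A13 lies at 2.42 on the side of CYBB at 5.29.

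Among the relatives and partners of S100 proteins, 81 genes in 7 lists, 8 were called between the untreated lines, 6 higher and 2 lower in SU-DHL-4. With 7.2% of all rows called in this comparison, nothing about the lists as such is read from that count. Of 12 annexins, ANXA2 and ANXA5 were lower and ANXA6 was higher, and the median of the list was -0.20 beside 0.01 over all rows. ANXA5, a phosphatidylserine binder, gave 7.94, 7.99 and 8.11 in SU-DHL-4 against 9.98, 9.73 and 10.02 in DG-75 (-1.90, SE 0.26, limma adjusted p = 7.6e-06). ANXA6, another membrane annexin, gave 9.91, 9.96 and 9.79 against 8.09, 8.29 and 8.15 (1.71, SE 0.12, limma adjusted p = 1.7e-10). The lines did not overlap for either annexin.

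Of 6 receptors of secreted S100 proteins 2 were higher in SU-DHL-4, namely TLR4, through which S100A8 and S100A9 signal, and its co-receptor LY96. TLR4 was higher by 1.46 (SE 0.33, limma adjusted p = 0.0025) and LY96 by 1.41 (SE 0.37, limma adjusted p = 0.0078), and the call of LY96 was lost without DMSO replicate 1 of SU-DHL-4, at 1.19. AGER, the receptor RAGE, had means of 5.48 and 5.22 and was not called (limma adjusted p = 0.38). Of 18 intracellular partners 2 were higher. CYBB, the catalytic subunit of the NADPH oxidase to which S100A8 and S100A9 deliver arachidonic acid, gave 9.84, 10.31 and 9.43 in SU-DHL-4 against 4.47, 4.74 and 4.51 in DG-75 (5.29, SE 0.24, limma adjusted p = 1.3e-13). The DG-75 means of CYBB, TLR4 and LY96 with DMSO lay under the array medians and were not shown to be above background, so the size of these differences in transcript is not known either. MYH10, a non-muscle myosin heavy chain, was higher by 1.07 (SE 0.25, limma adjusted p = 0.003), and its call was lost without DMSO replicate 3 of SU-DHL-4, at 0.87. MYH9, the myosin bound by S100A4, differed by -0.02 (limma adjusted p = 0.95), with an interval of -0.32 to 0.28. AHNAK, a scaffold bound by the S100A10 and annexin A2 complex, differed by 0.42 (limma adjusted p = 0.12), and CACYBP, the partner of S100A6, by -0.43 (limma adjusted p = 0.062). Of the 12 other S100 genes S100Z was higher in SU-DHL-4, with 7.99, 8.16 and 8.44 against 6.88, 6.81 and 6.75 (1.39, SE 0.17, limma adjusted p = 1.6e-06). No gene was called among 7 S100-fused type genes, 8 genes of the plasminogen system, which the S100A10 complex binds at the cell surface, and 18 other EF-hand calcium sensors.

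In SU-DHL-4 the S100 genes called under treatment were S100A4 and S100A13. S100A4 had lower values with each agent and the lowest mean with both, and S100A13 was lower with AZD and at about the same level with Ento+AZD. With Ento, 0 of the 9 genes were called, where 0.0508% of all rows were. With AZD 1 of 9 was called (0.18% of rows), and with Ento+AZD 2 of 9 were called (1.19% of rows), all lower. The median change of the 9 genes was -0.15 with Ento, -0.23 with AZD and -0.60 with Ento+AZD, beside -0.06, -0.08 and -0.08 over all rows. Lower means were found in 7, 8 and 7 of the 9, and in 62.4%, 63.9% and 64.0% of all rows. After subtraction of array medians, which moved the all-row medians to 0.05, 0.04 and 0.05, 5, 5 and 6 of the 9 had lower means, and the signs that changed were those of S100A8, S100A11 and S100A16. The 3 comparisons share the DMSO arrays, and the choice of genes used these changes. Under Ento+AZD 1 of 4 plasma cell markers was higher and none of the 6 B-cell or 10 myeloid markers was called, and their part in the S100 changes was not tested.

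**Figure D3:**
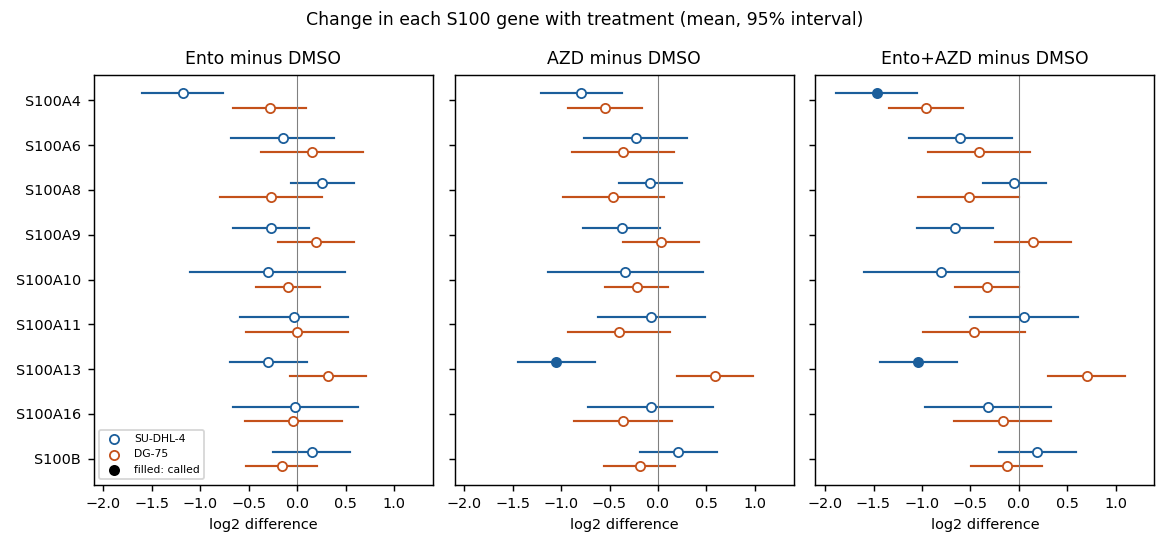
Log2 change against DMSO of the 9 S100 genes with Ento, AZD and Ento+AZD in SU-DHL-4 (blue) and DG-75 (orange), with 95% intervals and filled points where called. S100A4 lies below 0 in all 6 comparisons, from -0.28 to -1.47, and S100A13 lies below 0 in SU-DHL-4 and above 0 in DG-75.

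S100A4 is linked to cell motility through its binding of non-muscle myosin. In SU-DHL-4 its levels were 7.22, 6.95 and 6.48 with DMSO, 6.13, 5.16 and 5.82 with Ento, 6.33, 6.09 and 5.86 with AZD, and 5.76, 5.28 and 5.21 with Ento+AZD. Every array of every treatment was below every DMSO array. The change was -1.18 with Ento and -0.79 with AZD (SE 0.19 each), neither called, and -1.47 with Ento+AZD (SE 0.19), which was called in all 8 other settings and with any of the 12 arrays left out. The Ento change was called in 3 of the 8 other settings. Ento+AZD was lower than AZD alone by 0.67, without overlap, and differed from Ento alone by -0.29, with overlap. The difference from Ento alone was -0.55 without Ento replicate 2 and -0.09 without Ento replicate 3.

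S100A13 in SU-DHL-4 gave 7.31, 6.47 and 6.53 with DMSO, 6.93, 5.85 and 6.64 with Ento, 5.89, 5.65 and 5.62 with AZD, and 6.15, 5.40 and 5.64 with Ento+AZD. Arrays with AZD or Ento+AZD lay below all DMSO arrays, and those with Ento overlapped DMSO. The change was -0.30 with Ento, -1.05 with AZD (2.07-fold) and -1.04 with Ento+AZD (2.05-fold), with an SE of 0.18 for each. The Ento change was -0.45 without Ento replicate 3 and -0.10 without Ento replicate 2. Ento+AZD and AZD alone differed by 0.01. The folds lay just above the minimum of 2. Both calls were lost without the replicate number as a block, under quantile normalization and after subtraction of array medians, where the changes were -0.92 to -1.05 and -0.91 to -1.04. With single arrays left out the AZD call held in 3 of 12 omissions (Ento 2, Ento 3 or AZD 2 left out), and over all 12 the change was -0.90 to -1.22. The Ento+AZD call held in 7 of 12 and was lost without DMSO 1, DMSO 2 or any of the Ento+AZD arrays, and over all 12 the change was -0.94 to -1.16.

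The other 7 genes were not called in SU-DHL-4. S100A10, already low in this line, gave 4.26, 3.70 and 4.57 with Ento, 4.86, 3.69 and 3.89 with AZD, and 3.11, 3.99 and 3.94 with Ento+AZD. These overlapped the DMSO values, and the Ento+AZD change of -0.80 (SE 0.37) was -0.39 without DMSO replicate 3 and -1.19 without Ento+AZD replicate 2. From RNA sequencing of this line, the study reports S100A10 as significantly lowered by the combination only. Those reads were not analysed here. S100A9 changed by -0.66 (SE 0.18) and S100A6 by -0.60 (SE 0.24) with Ento+AZD, each with arrays that overlapped DMSO and with all 3 same-numbered differences below 0. With single arrays left out they ranged from -0.81 to -0.48 and from -0.74 to -0.37. S100A11 stayed at 2.61 to 3.66 over the 12 arrays. S100A8, which pairs with S100A9 as calprotectin, lay at 2.47 to 3.31, S100A16, a widely expressed and atypical member, at 2.03 to 3.62, and S100B, best known from astrocytes, at 3.11 to 3.66. The group means of these 3 genes ranged over 0.34, 0.32 and 0.21. Comparing Ento+AZD with Ento and with AZD, 0 of 9 genes were called in each, where 0.0821% and 0.0274% of rows were.

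In DG-75 none of the 9 genes was called under any treatment. With Ento 0 of 9 were called (0.00391% of rows), with AZD 0 of 9 (0.18%) and with Ento+AZD 0 of 9 (0.833%), and against Ento and AZD alone Ento+AZD gave 0 of 9 each (0.657% and 0% of rows). The median change of the 9 genes was -0.04 with Ento, -0.36 with AZD and -0.33 with Ento+AZD, beside 0.00, -0.06 and -0.07 over all rows. Under Ento+AZD 1 of 6 B-cell markers was higher, and its part in the changes was not tested.

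S100A4 again had its lowest mean with the combination. Its DG-75 levels were 7.34, 7.18 and 7.26 with DMSO, 7.06, 6.77 and 7.10 with Ento, 6.42, 6.78 and 6.94 with AZD, and 6.26, 5.95 and 6.70 with Ento+AZD. No treated array reached the lowest DMSO array. The change was -0.28 with Ento, -0.55 with AZD and -0.96 with Ento+AZD (SE 0.17 each). The last of these missed the call only on fold, at 1.94, and was called at -1.10 without Ento+AZD replicate 3. S100A4 thus had all same-numbered differences below 0 in each of the 6 comparisons with DMSO over both lines. The comparisons of a line share its DMSO arrays and are not independent.

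S100A13 had higher values under treatment in DG-75, with 4.41, 4.14 and 4.48 in DMSO, 4.88, 4.26 and 4.86 with Ento, 5.13, 4.92 and 4.76 with AZD, and 4.97, 4.72 and 5.45 with Ento+AZD. AZD and Ento+AZD arrays lay above all DMSO arrays, while Ento arrays overlapped them. The differences were 0.32, 0.59 and 0.70 (SE 0.18 each), none called. S100A10 gave 9.91, 10.11 and 9.45 with Ento, 9.73, 9.83 and 9.54 with AZD, and 9.62, 9.55 and 9.60 with Ento+AZD, the last group below all DMSO arrays, by -0.33 (SE 0.15). S100A11 gave 7.06, 6.31 and 7.78 with Ento+AZD (-0.46, SE 0.24), with overlap, and its change was -0.63 to -0.25 with single arrays left out. S100A6 changed by -0.41, S100A8 by -0.52, S100A16 by -0.17, S100B by -0.12 and S100A9 by 0.15 with Ento+AZD, and S100A6 alone of these did not overlap DMSO. With single arrays left out S100A6 ranged from -0.67 to -0.25, S100A8 from -0.77 to -0.26 and S100B from -0.23 to -0.05. The direction turned for S100A16, at 0.11 without DMSO replicate 2, and for S100A9, at -0.03 without DMSO replicate 1.

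**Figure D4:**
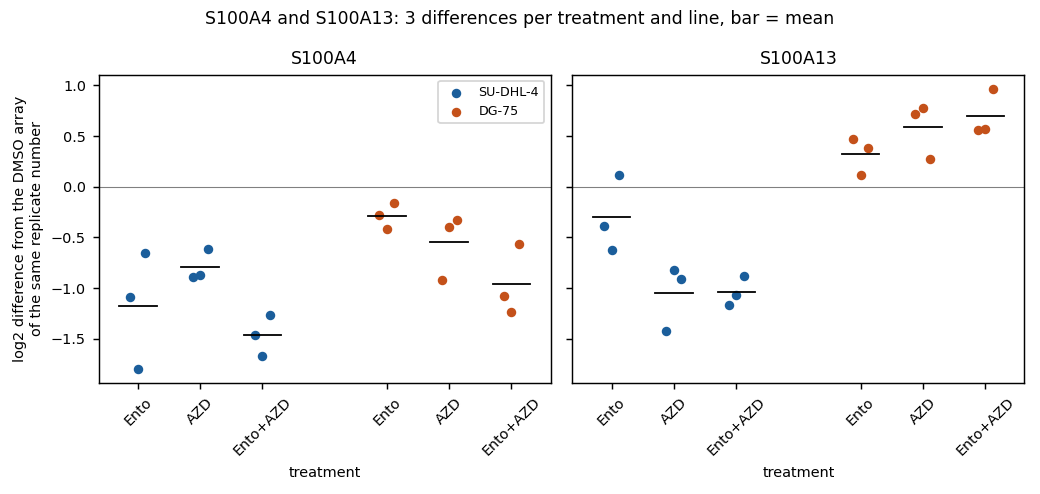
Log2 difference of S100A4 and S100A13 from the DMSO array of the same replicate number, 3 points per treatment and line, with the bar at their mean. All 18 points of S100A4 lie below 0, and the AZD and Ento+AZD points of S100A13 lie below 0 in SU-DHL-4 (-0.82 to -1.42) and above 0 in DG-75 (0.28 to 0.97). The same 3 DMSO arrays of a line serve for all its treatments, so the points are not independent.

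Whether a response differed between SU-DHL-4 and DG-75 was read from a fit of all 24 arrays. For Ento 0 of 9 genes were called (0.00782% of rows), for AZD 0 of 9 (0% of rows) and for Ento+AZD 1 of 9 (0.0352% of rows). The called gene was S100A13, whose response to Ento+AZD was -1.04 in SU-DHL-4 against 0.70 in DG-75, a difference of -1.74 (SE 0.26). That call was lost without the replicate block and in 6 of 24 omissions of an array, namely SU-DHL-4 DMSO 1 and Ento+AZD 2 or 3, and DG-75 DMSO 1 or 3 and Ento+AZD 1, while the difference stayed at -1.56 to -1.86. For AZD the difference of S100A13 was -1.64 (SE 0.26) and was not called. S100A4 differed in response by -0.89 with Ento (SE 0.26), by -0.24 with AZD and by -0.51 with Ento+AZD, none called. Its AZD value was -0.41 without DG-75 AZD replicate 1 and -0.09 without SU-DHL-4 DMSO replicate 2. The difference for S100A9 with Ento+AZD was -0.80 (SE 0.26) and was not called either.

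Under treatment 2 calls were made among the 81 relatives and partners. Of the 81, 1 was called with AZD in SU-DHL-4, where 0.18% of all rows were. Another 1 was called between Ento+AZD and Ento in DG-75, where 0.657% of all rows were. Nothing about the lists as such is read from these counts. CALML4, a calmodulin-like protein, gave 6.56, 6.59 and 7.07 with DMSO and 5.46, 5.65 and 5.83 with AZD in SU-DHL-4. The groups did not overlap and CALML4 fell by 1.09 (SE 0.16, limma adjusted p = 0.033), a call lost without the replicate block, under quantile normalization, after subtraction of array medians and in 6 of 12 omissions of an array (DMSO 1, 2 or 3, AZD 1 or 3, or Ento+AZD 1). Over all 12 omissions its change was -0.97 to -1.18. CYBB in DG-75 gave 5.43, 5.25 and 5.32 with Ento and 4.06, 3.66 and 4.16 with Ento+AZD, without overlap. It fell by 1.37 (SE 0.23, limma adjusted p = 0.021), and the call held in 7 of 12 omissions and was lost without Ento 1 or 2 or any Ento+AZD array, and over all 12 the change was -1.27 to -1.51. The CYBB level with DMSO lay between these, at a mean of 4.57.

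ANXA2 and CACYBP, partners of S100A10 and S100A6, had lower values in DG-75 under Ento+AZD by less than the fold minimum. ANXA2 gave 10.98, 10.86 and 10.57 with DMSO and 10.09, 10.04 and 10.20 with Ento+AZD, without overlap, a change of -0.69 (SE 0.15, limma adjusted p = 0.038). CACYBP changed by -0.65 (SE 0.14, limma adjusted p = 0.038). In SU-DHL-4 ANXA2 stayed at group means of 3.30 to 3.57. AHNAK, AGER, TLR4 and MYH9 were not called under any treatment. None of the 81 genes was called for a difference between the lines in response to any of the 3 exposures. At most 0.0352% of all rows were called in any of these comparisons, so nothing about the lists is read from the absence of calls.

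Genes whose pattern was most like that of the 4 most variable S100 genes were found from correlations over the 24 arrays after subtraction of each line's mean. These arrays share treatments and replicate numbers, and the values are a description. S100A4 was nearest to C1orf54 (0.93), QPRT, an enzyme of NAD synthesis (0.86), and SRGN, the core protein of a granule proteoglycan (0.86). Under Ento+AZD C1orf54 changed by -1.85 in SU-DHL-4 against -1.04 in DG-75, QPRT by -0.78 and -0.89, and SRGN by -0.80 and -0.97. These genes were chosen for their likeness to S100A4 in the same arrays, and their shared direction follows from that choice.

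S100A13 was nearest to FOS (0.77), MYL12-AS1 (0.77) and JUN (0.76), of which FOS and JUN encode AP-1 subunits. JUN changed by -0.90 in SU-DHL-4 against 0.98 in DG-75 with Ento+AZD, and FOS by -0.58 and 0.19, and their directions likewise follow from how they were chosen. The correlation of FOS was 0.89 within SU-DHL-4 and 0.39 within DG-75, and that of JUN 0.76 in each line. Genes with a pattern like that of S100A10 included the glycolytic enzyme gene ALDOC (0.77) and FUT11, a fucosyltransferase (0.76). S100A11 was nearest to DLD (0.83), a subunit of mitochondrial dehydrogenases, SLC39A6 (0.82), a zinc transporter, and ENY2 (0.81). Among the 36 pairs of S100 genes 28 correlations were above 0, with a range of -0.33, for S100A9 and S100B, to 0.67, for S100A6 and S100A9.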

How the data were processed

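Clariom D arrays of 24 samples were analysed from 1 table of log2 values, which the authors made by RMA normalization with limma and mapped to genes with affycoretools and an annotation package, and deposited without probe identifiers. Its genome build and annotation version are not given in the sources used here. The submitters' processing notes name RMA and limma, without versions. All per-sample columns were assigned by name (0 unused), and no pair of arrays was identical. It has no columns of the authors' own comparisons.

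Groups and replicate numbers came from the sample labels. Log2 differences were computed on all 25575 rows with limma 3.58.1 in R 4.3.3 and adjusted over all rows. Each line was fitted with treatment and replicate number as terms, since the study's model has a batch term. The DMSO difference between the lines used all 24 arrays without a block, and differences in response used replicate number within line. Members and gene lists were chosen with earlier results of these data known. The text names all 9 members, called genes of the 7 lists, 6 well-known partners (ANXA2, AHNAK, AGER, TLR4, CACYBP and MYH9) and the 3 rows most like each of the 4 members with the widest range of group means. A gene that this rule names is not reported here. S100A1 and the neighbours were named after their values were seen. Alternatives changed 1 choice at a time, except that a prior variance following expression was combined with robust estimation, and those for the 7 lists were added after the data were seen. The calculations were tested on simulated data. Protein sequences were not used here. Replicate correlations within a group were 0.981 to 0.992.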

Additional observations from a re-analysis of the deposited data

Results flagged for a closer look

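S100A13 differed between the lines in its response to Ento+AZD, by -1.74 on the log2 scale (SU-DHL-4 minus DG-75), in the fit of all 24 arrays. That call was lost without the replicate block and held in 18 of 24 omissions of an array. The same-numbered differences from DMSO were -1.16, -1.07 and -0.88 in SU-DHL-4 and 0.56, 0.57 and 0.97 in DG-75.

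S100A13 also went in opposite directions with AZD, with -1.42, -0.82 and -0.91 in SU-DHL-4 and 0.72, 0.78 and 0.28 in DG-75. The difference of -1.64 was not called in the fit.

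S100B went in opposite directions with Ento in every same-numbered difference, with 0.09, 0.32 and 0.04 in SU-DHL-4 and -0.12, -0.05 and -0.30 in DG-75. The difference of 0.31 was not called, and the 3 values of each group overlapped those of DMSO.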

How the results depend on the processing

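No called value of the 9 S100 genes changed sign under any alternative, and of 2831 recomputed differences 2823 moved by less than the SD between replicates. The count of 2823 was largely fixed in advance and is no measure of stability. Changing the block, the prior variance or the fold minimum leaves a difference as it was. Leaving out an array can move the mean of so small a group by only part of its SD. Counts of called genes changed as follows. Without the replicate block, 0 of the 9 were called with AZD and 1 with Ento+AZD in SU-DHL-4, 0 for the difference in response to Ento+AZD, and 0 of the 81 partners with AZD in SU-DHL-4. The same 0, 1 and 0 in SU-DHL-4 were found under quantile normalization and after subtraction of array medians. In SU-DHL-4 with Ento, 1 gene was called, against 0, in 1 fit of all 24 arrays, with rows under the median expression left out, and with a prior variance that follows expression combined with robust estimation. The last setting also called 1 gene for the difference in response to AZD, and the low-expression filter left 0 partners called between Ento+AZD and Ento in DG-75, where CYBB was no longer tested, and 6 against 8 between the lines, where TLR4 and LY96 were missing. Without the fold minimum, 1 S100 gene and 2 partners were called with Ento+AZD in DG-75, 2 partners with Ento+AZD in SU-DHL-4, and 16 partners between the lines.

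With single arrays left out, 0 to 1 of the 9 genes were called with AZD and 1 to 2 with Ento+AZD in SU-DHL-4, 0 to 1 with Ento+AZD in DG-75, and 0 to 1 for the difference in response to AZD and to Ento+AZD. Of the partners, 0 to 1 were called with AZD in SU-DHL-4, 0 to 1 with Ento+AZD in DG-75, and 0 to 3 between Ento+AZD and Ento in DG-75. The cause of these changes was not tested.

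Same-numbered arrays deviated together weakly, with a median correlation of 0.15 over 18 pairs in SU-DHL-4 (lowest -0.11) and 0.04 in DG-75 (lowest -0.35), and 12 and 7 of 12 arrays correlated best with their own number. The labels tie the numbers to no batch. The block raised the rows called with Ento+AZD in SU-DHL-4 from 45 to 304. No detection values were used, which limits statements on values near or under the array medians, among them those of S100A6, S100A8, S100A9, S100A16 and S100B in both lines, of S100A10, S100A11, ANXA2 and treated S100A4 in SU-DHL-4, and of S100A13, CYBB, TLR4 and LY96 in DG-75.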
